A study of Mus musculus with 7 samples.

Results

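The change between the effector phase and the memory phase was followed in virus-specific T cells that had lost the transcription factor Thpok. The cells compared were all cells of the Thpok-deleted library of day 30 of the infection (736 cells) and all cells of the Thpok-deleted library of day 7 (1333 cells), 2069 of the 16427 cells kept in the 7 libraries of the study. A cell was a barcode with at least 500 genes detected and at most 10% of its unique molecular identifiers (UMIs, each standing for 1 captured transcript) from mitochondrial genes. In the Thpok-deleted libraries few barcodes lay near the gene limit. At day 30 there were 4 with 500 to 549 and 5 with 450 to 499 genes, against 3 and 1 at day 7. The mitochondrial limit removed 1 and 9 further barcodes.

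The study infected C57BL/6 mice with lymphocytic choriomeningitis virus of the Armstrong strain, which causes an acute infection, and measured spleen T cells by droplet single-cell RNA sequencing. CD44high cells that bound a GP66:I-Ab tetramer, a class II molecule loaded with a viral peptide, were sorted (GP66+ cells). Thpok-deleted cells of day 30 and day 7 came from Ox40-Cre+ Thpok fl/fl RosaYFP+ mice. Thpok-sufficient cells of day 30 and day 7 came from Ox40-Cre+ Thpok wt/wt RosaYFP+ mice, and all 4 of these libraries were also gated on the YFP reporter. Ox40 is induced on activated T cells, so that the Cre acts after activation and not in development. The fifth GP66+ library held wild type cells of day 7, for which a CD4 gate is named. No CD4 gate is named for the Cre libraries, and a pair of wild type libraries of total CD44high T cells enters no comparison here. Each group is 1 library, and the number of mice behind it is not stated. The day therefore cannot be told apart from the mice, the capture and the library.

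Thpok, encoded by Zbtb7b, is a zinc finger protein that directs thymocytes to the CD4 helper lineage and represses genes of the cytotoxic lineage. After an acute viral infection most effector T cells die, and the survivors leave the cell cycle, lower their effector metabolism and persist as memory cells. Memory helper cells take up interleukin 7 through Il7r, recirculate under the control of Klf2 and Ccr7, and include descendants of type 1 helper (Th1) and of follicular helper (Tfh) cells, whose role is help to B cells.

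The day 30 library was shallower per cell. The median cell held 2440 UMIs and 1042 genes at day 30, against 5866 UMIs and 1982 genes at day 7, and the libraries summed to 2141556 and 8861661 UMIs. Thpok-sufficient cells showed the same order, with 2017 UMIs at day 30 and 5276 at day 7. Levels are given as the UMIs of a gene per 1000000 UMIs of the library's cells (CPM), and shares of cells after each cell was thinned to 1000 UMIs. The Thpok-deleted libraries of day 30 and day 7 shared 1 cell barcode. Zbtb7b (ENSMUSG00000028042, chromosome 3, 89377644 to 89394776, minus strand, GRCm38) had 1 UMI in each Thpok-deleted library, against 20.6 CPM in Thpok-sufficient cells of day 30, 31.4 CPM in those of day 7 and 27.2 CPM in wild type cells of day 7, so the labels and the targeted gene go together. The 8 measured T cell markers summed to 4037 CPM at day 30 and 4457 CPM at day 7, and none passed 2-fold. The B cell marker list summed to 63.0 CPM at day 30 and 17.8 CPM at day 7, with Cd79a and Ms4a1 at 0 UMIs at day 30 and Cd74 at 48.6 CPM. The myeloid list summed to 136 and 209 CPM (Cd14 at 0 UMIs at day 30). The NK cell list summed to 359 and 1269 CPM, of which Gzmb, a gene that cytotoxic T cells also express, made up 333 and 1264 CPM, and Ncr1 had 0 UMIs at day 30. The part of such cells in the results below was not tested. Haemoglobin genes and Alas2 had 13357 UMIs at day 30 and 35 at day 7; of the 13357, 12858 (96.3%) came from 1 cell that held 5 UMIs of 7 T cell markers, and 177 other cells held 1 to 19.

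A gene was said to have risen or fallen when its summed level at day 30 was at least 2-fold above or below that at day 7 and reached 20 CPM in the higher library. This is a rule of size: with 1 library per day there is no replicate error, and the 95% intervals of the ratios (exact, conditional on the 2 counts) cover counting error only. A gene that reaches 20 CPM at day 30 only cannot count as a fall, and a gene that reaches it at day 7 only cannot count as a rise. This limit holds for every list count below. Of 5527 genes at that level, 525 rose (9.50%) and 600 fell (10.9%), and the median gene stood at a log2 ratio of -0.18. These shares of all genes are the scale for the list counts below. With library totals that leave out ribosomal protein and mitochondrial genes, 734 rose and 554 fell. For scale, the 2 intact day 7 libraries, Thpok-sufficient and wild type, differed by 2-fold in 242 of 5231 genes (4.63%). The plot of levels on the 2 days shows where the gene groups described below lie.

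**Figure D1:**
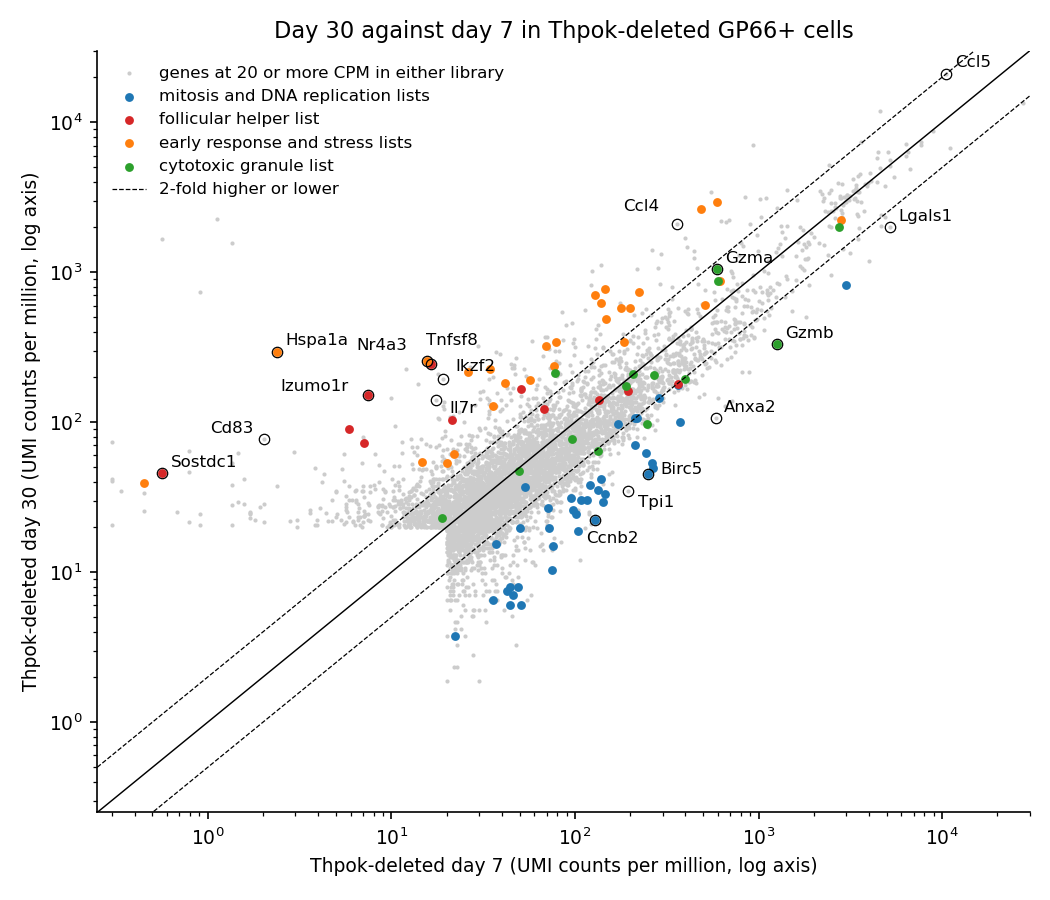
Level of each gene in Thpok-deleted GP66+ cells at day 30 (vertical) against day 7 (horizontal), in CPM on log axes, for genes at 20 or more in either library; genes below an axis limit stand at its edge. Dashed lines mark the 2-fold rule, past which lie 525 genes higher and 600 genes lower at day 30.

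The only fit with an error term used the 5 GP66+ libraries, with the 2 intact day 7 libraries as replicates and the lone libraries assumed to vary like them. It had 1 residual degree of freedom. In it edgeR's quasi-likelihood test called 0 of 11343 genes for the day in Thpok-deleted cells (lowest adjusted p = 0.116), with 1407 genes higher and 1570 lower at an unadjusted p under 0.05. DESeq2 called 108 higher and 22 lower. Each value below is therefore a measured difference between libraries that did not pass edgeR's threshold. The p-values measure only the spread between those 2 libraries, and summed levels do not tell fewer cells of a type from less RNA per cell.

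The broadest fall was in genes of cell division. Of 19 genes of the mitosis list at 20 CPM, 17 fell and 0 rose, with a median log2 ratio of -2.43 against -0.18 over all genes tested. Cdk1, Tpx2 and Ccna2 of that list reached 20 CPM at day 7 only, so they could not count as rises. Of 20 DNA replication genes, 18 fell and 0 rose (median -1.85). The promoters of 3 division genes are printed because mitotic genes are known to share a pair of short elements. Sequences are the 150 bases before the start site on the gene's strand, from RefSeq on GRCm38.p6. Capitals mark the cell cycle homology region TTTGAA and the CCAAT box, searched on both strands, so that they also read TTCAAA and ATTGG.

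Cdk1 (chr10:69352913-69353062, minus strand): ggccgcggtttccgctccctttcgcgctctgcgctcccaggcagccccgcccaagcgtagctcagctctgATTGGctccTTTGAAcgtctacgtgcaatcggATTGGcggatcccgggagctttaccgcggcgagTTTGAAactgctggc
Top2a (chr11:99024190-99024339, minus strand): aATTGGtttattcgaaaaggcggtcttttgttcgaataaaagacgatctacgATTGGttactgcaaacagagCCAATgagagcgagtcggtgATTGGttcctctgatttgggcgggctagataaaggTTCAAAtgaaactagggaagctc
Ccnb2 (chr9:70421555-70421704, minus strand): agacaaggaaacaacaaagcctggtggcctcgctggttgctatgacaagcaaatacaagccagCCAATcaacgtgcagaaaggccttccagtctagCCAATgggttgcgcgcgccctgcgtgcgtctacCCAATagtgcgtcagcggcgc

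Cdk1, the kinase that starts mitosis, had 2 cell cycle homology elements and 2 CCAAT boxes in this window, Top2a, which untangles replicated DNA, 1 and 4, and Ccnb2, a partner of Cdk1, 0 and 3. Birc5, described next, had 0 of either in its window. Both elements stood in 7 of 17 mitosis promoters with an entry (41.2%), against 2.32% of 27025 promoters of the same length. CCAAT was in 15 of 17 (88.2%), against 25.3% of all. The E2F sequences TTTCCCGC or TTTGGCGC were in 3 of 17 replication promoters (17.6%), against 0.896% of all. A match describes the letters and is not a measured binding site.

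Birc5, which encodes survivin of the chromosomal passenger complex, had 44.8 CPM at day 30 and 248 CPM at day 7 (ratio 0.180, interval 0.145 to 0.221). Ccnb2 had 22.4 and 128 CPM on the same days (ratio 0.175) and Cdk1 10.3 and 74.7 CPM (ratio 0.138). All of these passed the 2-fold rule by a wide margin. Top2a had 53.7 CPM at day 30 and 262 CPM at day 7 (ratio 0.205). The spindle factor Tpx2 had the lowest ratio of the mitosis list (0.120) and Tubb4b, a tubulin, the highest (0.565, which missed the 2-fold rule). Among replication genes, Rrm2, a subunit of ribonucleotide reductase, had 62.1 CPM at day 30 and 244 CPM at day 7 (ratio 0.254), and the helicase subunit Mcm3 33.2 and 147 CPM (ratio 0.226). Cdc6, which loads that helicase, had the lowest ratio there (0.169), and its partner Cdt1 (0.694) and the sliding clamp Pcna (0.508) missed the rule. Other division genes among the largest falls were Hist1h1b, a linker histone (ratio 0.120), the histone chaperone Asf1b (0.171), Cks1b (0.186), the passenger complex subunit Cdca8 (0.173) and the cyclin Ccna2 (0.181). Hist1h1b had 21.7 CPM in Thpok-sufficient and 83.85 CPM in wild type cells of day 7, so intact libraries of that day also differed in it. Without the cells with 10 or more UMIs of the mitosis and replication lists (division cells), a choice made after the data were seen, Hist1h1b, Asf1b and Cdca8 no longer passed the rule (0.569, 0.995 and 0.633). The cells left out were picked by unthinned UMIs of division genes. This subset therefore cannot test the fall of other division genes.

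The UMIs of division genes were unevenly spread over cells at day 30. The mitosis and replication lists together held 5138 UMIs at day 30, of which 56.9% came from the 49 cells (6.66%) with 10 or more, against 71465 UMIs and 931 such cells (69.8%) at day 7. At least 1 such UMI was in 93.5% of cells at day 30 and 99.8% at day 7. These counts per cell are not thinned, and the day 7 cells were deeper. At 1000 UMIs per cell, Birc5 was detected in 0.956% of cells at day 30 and 15.8% at day 7. Without the 5% of cells with most UMIs in each library the ratio of Birc5 was 0.0162 and that of Ccnb2 0.0348. In cells with 2000 to 5000 UMIs, a range chosen after the data were seen to bring depth per cell closer (on average 2885 UMIs at day 30 and 4095 at day 7), 13 of 19 mitosis genes and 5 of 20 replication genes fell, with medians of -2.99 and -0.90, and Ung and Slbp, which fell over all cells, stood at ratios of 1.29 and 1.08.

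Effector metabolism moved the same way over fewer genes. Of 15 glycolysis genes, 5 fell and 0 rose (median log2 ratio -0.76). Tpi1, triose phosphate isomerase, had 35.0 CPM at day 30 and 194 CPM at day 7 (ratio 0.180, interval 0.141 to 0.227). Gapdh had 551 and 1515 CPM on these days (ratio 0.363), Pkm a ratio of 0.393, Aldoa of 0.403 and Ldha of 0.423. The hexokinase Hk2, which commits glucose to the pathway, was highest in the list at 42.5 CPM at day 30 and 27.4 CPM at day 7 and missed the rule (ratio 1.55), but passed it without the division cells (2.55) and in cells with 2000 to 5000 UMIs (2.35). Oxidative phosphorylation genes lay mostly between: 2 of 20 fell, Cox5a (ratio 0.430) and Cox5b (0.450), both of cytochrome c oxidase, with a median of -0.83. That count is near the share of all genes tested that fell, 10.9%. Of 17 proteasome core subunits 10 fell (median -1.06), down to 0.406 for Psmb9, the immunoproteasome subunit, and up to 0.793 for Psma3, which missed the rule.

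Of 19 migration and cytoskeleton genes, 9 fell and 0 rose (median -0.97). Anxa2, a membrane-binding annexin, had 107 CPM at day 30 and 587 CPM at day 7 (ratio 0.182, interval 0.159 to 0.208). Lgals1, a galectin of effector T cells and the most abundant gene of the list, had 1999.5 CPM at day 30 and 5178 CPM at day 7 (ratio 0.386), and Lgals3 215 and 812 CPM (ratio 0.264). The calcium-binding S100a4 and S100a6 and the filament protein Vim had ratios of 0.276, 0.299 and 0.389. Lgals3 was detected in 16.1% of thinned cells at day 30 and 46.2% at day 7. The highest ratio was that of Anxa1 (1.92), and Itgb1, an integrin chain, stood at 1.81, both short of the rule. Anxa1 passed it without the division cells (2.61) and in cells with 2000 to 5000 UMIs (3.56), the 1 gene of the list to rise there. Plac8, outside the lists and abundant in effector cells, had 138 CPM at day 30 and 717 CPM at day 7 (ratio 0.192), and Pmm1, a phosphomannomutase, 7.00 and 57.7 CPM (ratio 0.121).

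**Figure D2:**
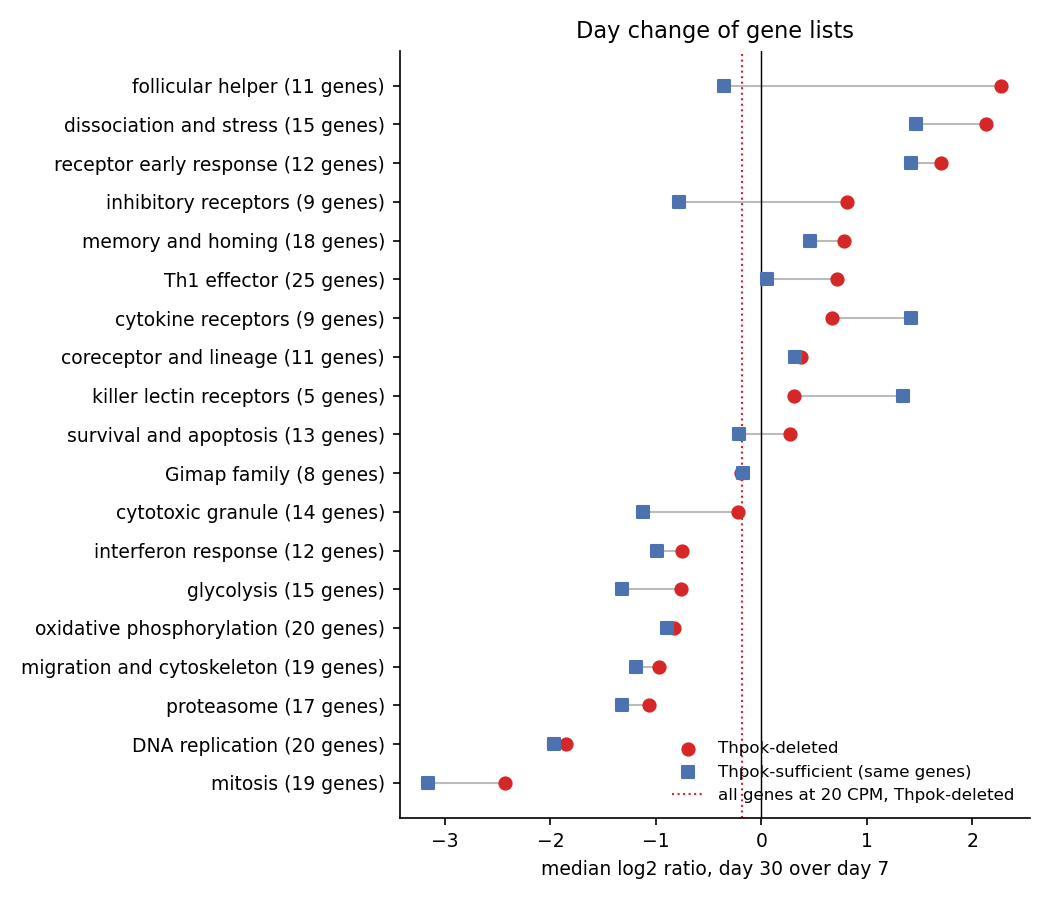
Median log2 ratio of day 30 over day 7 for each gene list, in Thpok-deleted cells (circles) and in Thpok-sufficient cells over the same genes (squares); the dotted line is the median of all genes tested in Thpok-deleted cells. Genes were chosen by their level in the Thpok-deleted libraries. The follicular helper list lies at 2.27 in Thpok-deleted and -0.35 in Thpok-sufficient cells, and mitosis is the lowest list in both.

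Cytotoxic genes did not move as a group. Of 14 granule genes at 20 CPM, 1 rose and 4 fell (median -0.22, near that of all genes). Over all genes tested, 9.50% rose and 10.9% fell. Gzmb, granzyme B, had 333 CPM at day 30 and 1264 CPM at day 7 (ratio 0.264, interval 0.244 to 0.285), and Gzmk, Ctsc and Serpinb6b also fell (ratios 0.392, 0.484 and 0.488). Gzma, granzyme A (chromosome 13, 113093825 to 113100981, minus strand), had 1054 CPM at day 30 and 595 CPM at day 7 (ratio 1.77, interval 1.69 to 1.86) and missed the rule, while Fasl, the ligand that triggers death through Fas, rose with 214 CPM at day 30 and 78.0 CPM at day 7 (ratio 2.75). Nkg7, the most abundant granule gene, had 2003 CPM at day 30 and 2739.7 CPM at day 7. Gzma reached a ratio of 2.25 with the mean of CPM per cell, 2.45 without the cells with 10 or more division UMIs, and 1.14 in cells with 2000 to 5000 UMIs. Its detection in thinned cells was 26.1% at day 30 and 23.5% at day 7, with overlapping intervals of 22.9 to 29.4% and 21.3 to 25.9%. Gzmb was detected in 21.9% of cells at day 30 and 59.2% at day 7. Before thinning the shares were 33.3% and 44.5% for Gzma and 35.7% and 87.2% for Gzmb.

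Ccl3, Ccl4 and Xcl1, genes of secreted chemokines, passed the 2-fold rule at day 30, and Ccl5 did not. Ccl4, which attracts T cells and monocytes, had 2109 CPM at day 30 and 359 CPM at day 7 (ratio 5.87, interval 5.61 to 6.14), and Ccl3 372 and 68.7 CPM (ratio 5.41). Xcl1, which attracts cross-presenting dendritic cells, had 146 CPM at day 30 and 9.93 CPM at day 7 (ratio 14.7). Ccl5 was the most abundant of them, at 21095 CPM at day 30 and 10554 CPM at day 7, a ratio just under 2, which came to 1.22 without the division cells and 1.04 in cells with 2000 to 5000 UMIs. In these subsets Ccl4 stood at 5.35 and 4.68 and Ccl3 at 4.87 and 6.63. The subset ratios of Xcl1, which had 88 UMIs over all Thpok-deleted cells of day 7, are not given here. Ccl4 was detected in 43.0% of thinned cells at day 30 and 19.4% at day 7, and the 5% of cells richest in it held 52.6% and 58.3% of its UMIs on these days. In the Th1 list, to which Ccl3, Ccl4 and Ccl5 belong, 7 of 25 genes rose and 1 fell (median 0.72).

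Of the cytokines in that list, Ifng had 322 CPM at day 30 and 118 CPM at day 7 (ratio 2.72, interval 2.47 to 3.00), and Tnf 25.2 and 1.69 CPM (ratio 14.9). Zeb2, a transcription factor of terminal effector cells, rose with a ratio of 3.34, and its partner in that state, Tbx21, stood at 1.82 and missed the rule. S1pr5, a receptor for exit into blood, had 31.8 CPM at day 30 and 7.11 CPM at day 7, and Ly6c1 a ratio of 4.18. The chemokine receptor Cxcr3 fell, with 80.3 CPM at day 30 and 181 CPM at day 7. Ccl5 lies at the 2-fold limit and is not among the 7 that rose, which are Ifng, Tnf, Ccl3, Ccl4, Ly6c1, S1pr5 and Zeb2. Of 5 killer lectin receptors, which read stress ligands and class I molecules, Klrc2 (235 CPM at day 30 and 26.9 CPM at day 7, ratio 8.75) and Klrk1, or NKG2D (258 and 78.5 CPM, ratio 3.28) rose and none fell (median 0.31). In cells with 2000 to 5000 UMIs Klrk1 missed the rule (1.73), so that 1 of the 5 rose and the median was -0.12. Klrc2 was detected in 21.6% of thinned cells at day 30 and 2.10% at day 7. Klrc1 and Klrc2 are close in sequence, and how reads shared by both were counted is not stated.

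Tfh genes were mostly higher at day 30. Of 11 genes at 20 CPM, 7 rose and 1 fell, with a median log2 ratio of 2.27, and the other 10 of its 21 genes were under 20 CPM on both days. Izumo1r, Tnfsf8, Tbc1d4, Cd200 and Sostdc1 reached 20 CPM at day 30 only. A gene that enters through day 30 alone cannot count as a fall, so the limit itself favours rises among them. Izumo1r, or folate receptor 4 (chromosome 9, 14885814 to 14903949, minus strand), had 152 CPM at day 30 and 7.45 CPM at day 7 (ratio 20.4, interval 15.6 to 27.0). Tnfsf8, the ligand CD30L, had 246 CPM at day 30 and 16.4 CPM at day 7 (ratio 15.0), and Tbc1d4, a regulator of vesicle traffic, 89.7 and 5.87 CPM (ratio 15.3). Cd200, an inhibitory ligand, had 72.4 CPM at day 30 and 7.11 CPM at day 7 (ratio 10.2). The transcription factors Maf (104 and 21.4 CPM, ratio 4.83) and Tox (168 and 50.9 CPM, ratio 3.29) also rose.

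Sostdc1, a secreted antagonist of bone morphogenetic proteins, had 98 UMIs in 24 cells at day 30 (45.8 CPM) and 5 UMIs in 1 cell at day 7 (0.564 CPM; ratio 81.1, interval 33.6 to 255). Sh2d1a, the adaptor SAP, was the 1 member that fell, with 180.2 CPM at day 30 and 364 CPM at day 7 (ratio 0.496). Pdcd1 stood at 1.81, Slamf6 at 1.04 and Batf at 0.838, inside the rule, though Pdcd1 passed it in the subsets described next (2.10 and 2.20). Bcl6, the factor that specifies Tfh cells, was under 20 CPM on both days, at 14.5 CPM at day 30 and 0.564 CPM at day 7 (interval of the ratio 9.89 to 84.5). Cxcr5, the receptor that takes Tfh cells to follicles, was low on both days, at 7.47 and 5.64 CPM. Without the cells with 10 or more division UMIs, which left 687 cells of day 30 and 402 of day 7, 8 of the 11 rose (median 1.59), with ratios of 11.6 for Izumo1r and 6.80 for Tnfsf8. In cells with 2000 to 5000 UMIs 8 rose as well (median 1.70), and the ratio of Tnfsf8 was 24.4.

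Other genes with large rises belong to no list of this kind or to helper T cells in general. Ikzf2, the transcription factor Helios, had 193 CPM at day 30 and 19.1 CPM at day 7 (ratio 10.1, interval 8.46 to 12.2). Its ratio was 5.01 without the division cells, and the same in cells with 2000 to 5000 UMIs. It was the 1 of 9 genes in the list of Th2, Th17 and regulatory T cell genes to reach 20 CPM. Foxp3, the defining factor of regulatory T cells, had 7.00 CPM at day 30 and 1.58 CPM at day 7, and the part of such cells in the rise of Ikzf2 was not tested. C2cd4b had 158 UMIs at day 30 and 0 at day 7, at least 218-fold higher against a floor of 3 counts in that library. The counting interval of this ratio begins lower, at 175. The same floor gives 51.7 without the division cells and 53.9 in cells with 2000 to 5000 UMIs, where fewer day 7 UMIs were summed. Nrn1, neuritin, had 62.6 and 1.47 CPM (ratio 42.7), Ramp1, a subunit of the receptor for a neuropeptide, 53.7 and 1.35 CPM (ratio 39.7), and Cd83, a surface marker of activation, 77.5 and 2.03 CPM (ratio 38.2). Vwa1 (ratio 12.9) and Cebpb (21.6), a leucine zipper factor, were also among the largest rises outside the lists, as was Fosl2, described below. Cebpb had 4.88 CPM in Thpok-sufficient and 0.418 CPM in wild type cells of day 7, and Vwa1 15.1 and 5.57 CPM. Intact libraries of the same day therefore also differed in both genes.

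**Figure D3:**
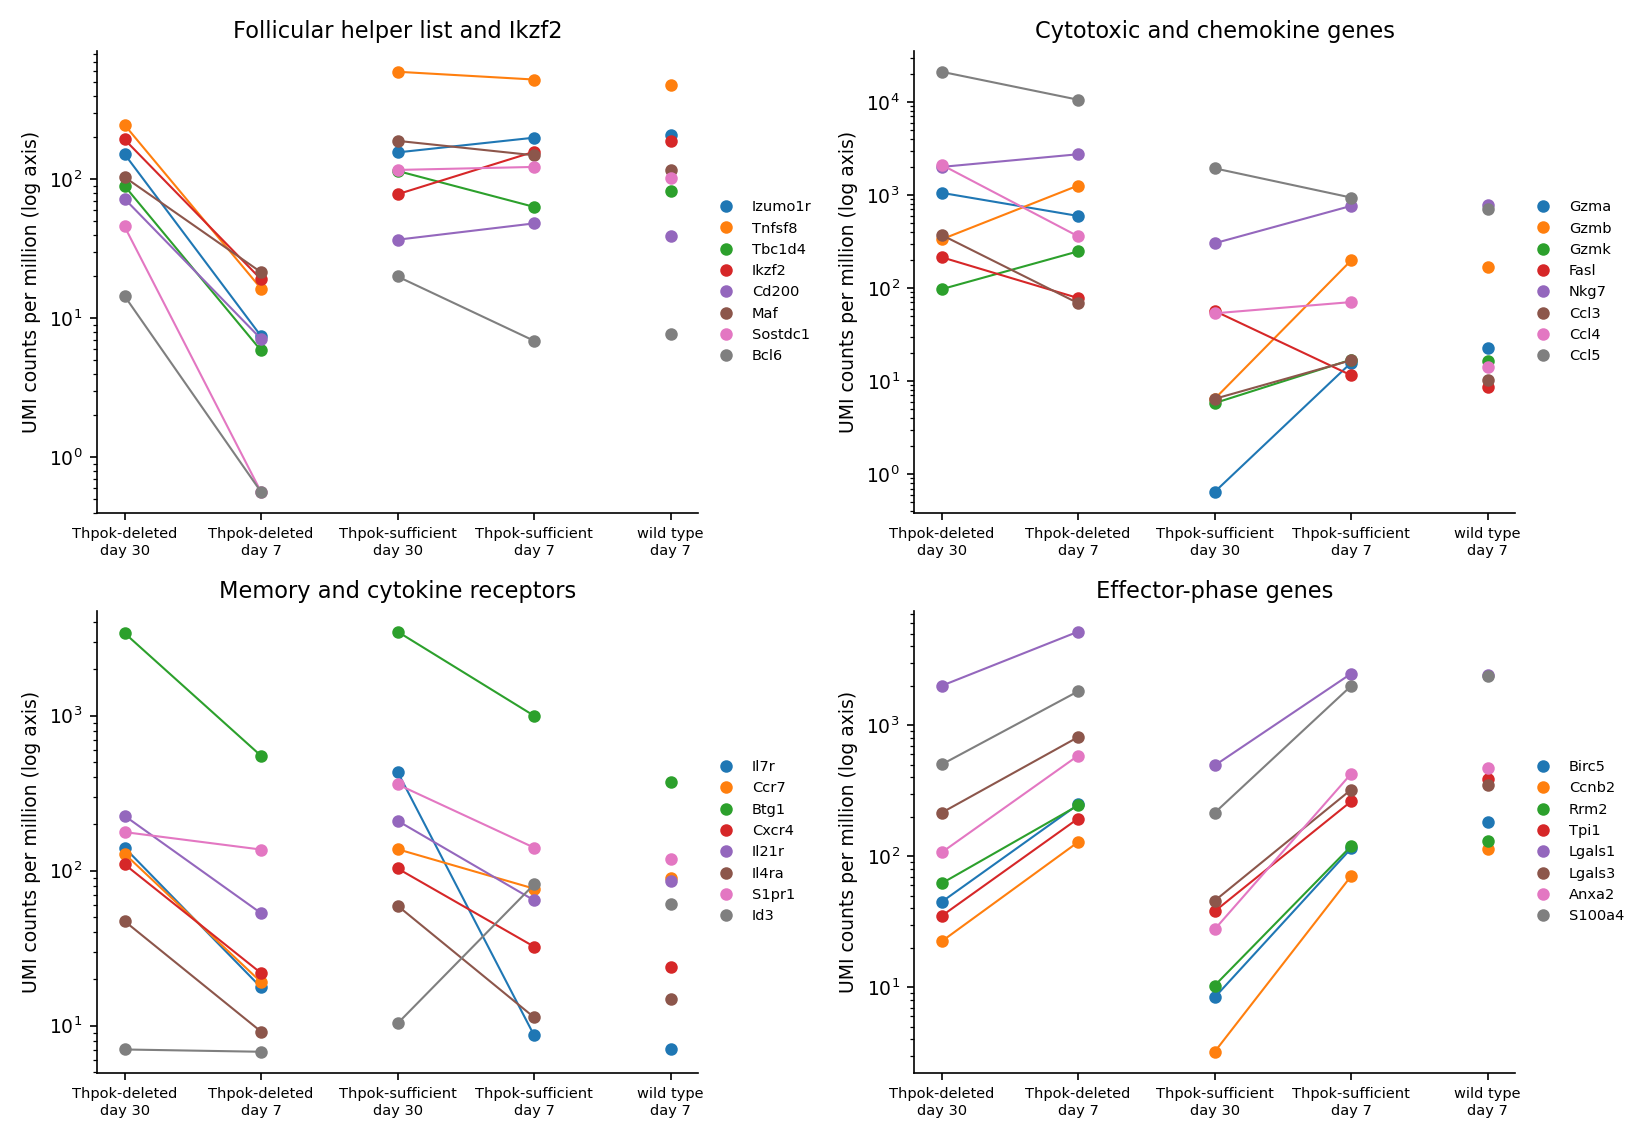
Level of named genes in each GP66+ library, in CPM on a log axis, 1 point per library; lines join day 30 and day 7 of the same genotype. Izumo1r, Tnfsf8 and Ikzf2 had day 30 over day 7 ratios of 20.4, 15.0 and 10.1 in Thpok-deleted cells, and in Thpok-sufficient cells of 0.784, 1.14 and 0.495.

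Memory and homing genes rose in part. Of 18 at 20 CPM, 7 rose and 2 fell (median 0.78). Il7r had 141 CPM at day 30 and 17.6 CPM at day 7 (ratio 7.98, interval 6.56 to 9.75), and Ccr7, which leads cells into lymph nodes, 128 and 19.1 CPM (ratio 6.73). Btg1, which restrains proliferation, had 3405 CPM at day 30 and 549.6 CPM at day 7 (ratio 6.20), and Cxcr4 109.7 and 21.8 CPM (ratio 5.04). Klf2 had 1484 CPM at day 30 and 407 CPM at day 7 (ratio 3.64), and Txnip and Klf3, a relative of Klf2, had ratios of 2.38 and 2.16. Levels of Klf2 in the 2 intact day 7 libraries were 763 CPM in Thpok-sufficient and 33.6 CPM in wild type cells, a wider gap than that between the days. The membrane proteins Ms4a4b (0.491) and Ms4a6b (0.456) fell. Tcf7, the factor of self-renewing memory cells, stood at 1.87, Bcl2 at 1.73, Foxo1 at 1.71 and Lef1 at 0.858, all inside the rule. Without the division cells 5 of the 18 rose (median 0.40), and 5 also in cells with 2000 to 5000 UMIs (median 0.47). Txnip (1.64 and 1.38) and Klf3 (1.87 and 1.85) were lost there, while Ccr7 stood at 2.87 and 4.17 and Btg1 at 3.76 and 3.95 in the same order.

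Of 9 cytokine receptor genes, 4 rose and 0 fell (median 0.67): Il7r, Il4ra (47.2 CPM at day 30 and 9.14 CPM at day 7, ratio 5.16), Il21r (226 and 53.0 CPM, ratio 4.25) and Il6st, the shared signalling chain of the interleukin 6 family (ratio 3.85). Il7r and Il4ra reached 20 CPM at day 30 only, so they could not count as falls. Il7r was detected in 11.2% of thinned cells at day 30 (interval 9.01 to 13.7%) and 1.28% at day 7 (0.746 to 2.04%).

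Genes of early receptor signalling and of cell stress rose together. Of 12 early response genes 10 rose and 0 fell (median 1.71), and of 15 genes known to respond to tissue dissociation and stress 13 rose and 0 fell (median 2.13). Nr4a3, a nuclear receptor induced by antigen receptor signals, had 257 CPM at day 30 and 15.7 CPM at day 7 (ratio 16.4, interval 13.6 to 19.9), and Nr4a1 619 and 138 CPM (ratio 4.48). Hspa1a, an inducible heat shock protein, had 296 CPM at day 30 and 2.37 CPM at day 7 (ratio 125, interval 81.0 to 203), Jun 226 and 34.4 CPM, and Junb 2638 and 487 CPM. Nr4a3 and Hspa1a reached 20 CPM at day 30 only, so they could not count as falls. Jund had 2961 CPM at day 30 and 590.2 CPM at day 7, and also 836 CPM in Thpok-sufficient against 59.1 CPM in wild type cells of day 7. Of the lists, Cd69 (1.83) and Nfkbia (1.41) missed the rule, as did Hsp90aa1 (1.19) and Hspa8 (0.790); Hsp90aa1 passed it without the division cells (2.25) and in cells with 2000 to 5000 UMIs (2.07). Fosl2, another Jun partner, had 319.9 CPM at day 30 and 29.6 CPM at day 7 (ratio 10.8). The lists rose in Thpok-sufficient cells too (medians 1.42 and 1.46), and the part of cell handling in these values was not tested. The promoter of Nr4a1 shows the core TGACG of the cyclic AMP response element in capitals, here on the opposite strand and so read as CGTCA, in 2 places.

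Nr4a1 (chr15:101266696-101266845, plus strand): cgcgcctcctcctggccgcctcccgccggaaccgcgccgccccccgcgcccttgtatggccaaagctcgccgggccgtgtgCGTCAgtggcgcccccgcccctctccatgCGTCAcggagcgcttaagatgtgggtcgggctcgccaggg

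That core was in 5 of 11 early response promoters (45.5%) and 6 of 12 stress promoters (50.0%), against 13.5% of all promoters of this length. Neither TTTGAA nor CCAAT was in any of the 11.

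Lineage genes mostly stayed within 2-fold. Of 11 coreceptor and lineage genes at 20 CPM, 3 rose and 1 fell (median 0.38). Cd4 had 126 CPM at day 30 and 100.2 CPM at day 7 (ratio 1.26), Runx3, the factor of the CD8 lineage, 193 and 156 CPM (1.24), and Cd8a 18.7 and 31.1 CPM (0.600). Cd8b1 fell, with 36.0 CPM at day 30 and 85.9 CPM at day 7 (ratio 0.419). The helper genes that rose were Cd40lg, the ligand that licenses B cells and dendritic cells (129.8 CPM at day 30 and 28.4 CPM at day 7, ratio 4.56), Tnfrsf4, which encodes Ox40 and whose promoter drives the Cre (78.0 and 18.8 CPM, ratio 4.14), and Gata3 (87.8 and 40.1 CPM, ratio 2.19). Gata3 missed the rule without the division cells (1.72) and in cells with 2000 to 5000 UMIs (1.66). Cd40lg was detected in 12.4% of thinned cells at day 30 and 2.41% at day 7.

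Of 9 genes in the inhibitory receptor list, 2 rose and none fell (median 0.81). Both that rose encode ligands and not receptors: Cd200 and Pdcd1lg2 (24.7 CPM at day 30 and 11.8 CPM at day 7, ratio 2.09). Lag3 stood at 1.11 and Havcr2, or TIM-3, at 0.506. Among 13 survival and apoptosis genes, Bbc3, or PUMA, rose (27.6 and 8.46 CPM, ratio 3.26), and the death effectors Bak1 (0.413) and Bid (0.451) fell. In cells with 2000 to 5000 UMIs Bbc3 stood at 1.47, and 0 of the 13 rose. In the interferon list 1 of 12 rose and 3 fell (median -0.75): Irf7, the regulator of interferon genes, had 232 CPM at day 30 and 46.4 CPM at day 7 (ratio 4.99), while Ly6a (155 and 504 CPM, ratio 0.308), Oas1a (0.378) and Usp18 (0.383) were lower. Of the 8 Gimap genes, a family of lymphocyte GTPases, 1 fell, Gimap7 (ratio 0.450), and none rose. The scale for these small counts is the 9.50% of all genes tested that rose and the 10.9% that fell.

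Thpok-sufficient cells give the day change with the factor present. There 439 of 5234 genes rose (8.39%) and 963 fell (18.4%), with a median log2 ratio of -0.34. Genes that rose in both genotypes numbered 296, which is 56.4% of those that rose in Thpok-deleted and 67.4% of those that rose in Thpok-sufficient cells. Genes that fell in both numbered 377, or 62.8% and 39.1%. In 4 genes the change was up in Thpok-deleted and down in Thpok-sufficient cells, and in 0 the opposite. The ratio of the day ratios was at least 2 in favour of Thpok-deleted cells in 423 of 5777 genes (7.32%) and at least 2 the other way in 72 (1.25%). With the same requirement against each of the 2 intact day 7 libraries, 368 and 41 genes were left. edgeR's test of the difference between the day changes called 0 of 11343 genes (lowest adjusted p = 0.69, 596 and 166 at an unadjusted p under 0.05), and DESeq2 called 6 and 0. None of the following differences therefore passed edgeR's threshold.

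All 11 Tfh genes had a higher day ratio in Thpok-deleted cells (median 2.27) than in Thpok-sufficient cells (median -0.35). The higher ratio was also in Thpok-deleted cells for 3659 of all 5527 genes tested, 15 of 15 stress genes and 16 of 17 proteasome genes. The 11 were chosen by their level in Thpok-deleted cells. By level in Thpok-sufficient cells 16 Tfh genes were counted, of which 0 rose and 7 fell there (median -0.71). For Izumo1r the day 30 levels of the genotypes lay close and the day 7 levels apart, whereas Tnfsf8, Sostdc1 and Tnfsf11 were lower in Thpok-deleted cells on both days, with the wider gap at day 7. Izumo1r had 152 CPM in Thpok-deleted and 156 CPM in Thpok-sufficient cells of day 30, against 7.45 CPM in Thpok-deleted, 199 CPM in Thpok-sufficient and 209.6 CPM in wild type cells of day 7 (ratio of the day ratios 26.0, counting interval 19.3 to 34.9). Tnfsf8 had 246 CPM in Thpok-deleted and 593 CPM in Thpok-sufficient cells of day 30, against 16.4, 521 and 477 CPM in Thpok-deleted, Thpok-sufficient and wild type cells of day 7. Sostdc1 had 45.8 and 117 CPM at day 30, against 0.564, 123 and 102 CPM at day 7 in the same order (ratio of the day ratios 85.2). Tnfsf11, the ligand RANKL, had 25.2 and 83.1 CPM at day 30, against 0.677, 35.6 and 55.8 CPM at day 7 (16.0).

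Gzma separates the genotypes at both days. It had 1054 CPM in Thpok-deleted and 1 UMI, 0.644 CPM, in Thpok-sufficient cells of day 30, against 595 CPM in Thpok-deleted, 15.8 CPM in Thpok-sufficient and 22.6 CPM in wild type cells of day 7. The ratio of its day ratios, 43.4, rests on that 1 UMI and has a counting interval of 6.08 to 309.7. Xcl1 had 146 CPM in Thpok-deleted and 1.93 CPM in Thpok-sufficient cells of day 30, against 9.93, 4.0 and 0.836 CPM at day 7 (ratio of the day ratios 30.5), and Hspa1a 296 and 113 CPM, against 2.37, 41.2 and 18.2 CPM (45.3). In the cytotoxic list 13 of 14 genes had the higher day ratio in Thpok-deleted cells, with medians of -0.22 and -1.12. Of all 5527 genes tested 3659 had it too, and of 17 proteasome genes 16. The count is therefore not particular to the cytotoxic list.

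Genes that gained less with time in Thpok-deleted cells were led by Il7r. It had 141 CPM in Thpok-deleted and 433 CPM in Thpok-sufficient cells of day 30, against 17.6 CPM in Thpok-deleted, 8.65 CPM in Thpok-sufficient and 7.10 CPM in wild type cells of day 7, day ratios of 7.98 and 50.1 (ratio of the day ratios 0.159, counting interval 0.120 to 0.211). Thinned cells with an Il7r UMI made up 11.2% of Thpok-deleted and 32.9% of Thpok-sufficient cells of day 30. Klrk1 rose in both genotypes, 3.28-fold in Thpok-deleted and 9.63-fold in Thpok-sufficient cells, though its level stayed higher in Thpok-deleted cells (258 and 43.2 CPM at day 30). Klrd1 had day ratios of 0.930 and 2.91, Ccr2 of 0.739 and 2.06, Sidt1 of 0.942 and 2.85 and Pde2a, a cyclic nucleotide phosphodiesterase, of 1.39 and 5.94 in the same order. At day 30 the levels of Klrd1 (261 and 36.1 CPM) and Ccr2 (98.1 and 29.6 CPM) were also higher in Thpok-deleted cells. Those of Sidt1 (35.5 and 86.4 CPM) and Pde2a (18.2 and 50.9 CPM) were lower. Wdr95 (42.0 CPM at day 30 and 86.7 CPM at day 7 in Thpok-deleted cells) and the integrin Itgax (20.1 and 58.8 CPM) also ranked among the genes that gained less. They had 2 and 0 UMIs in Thpok-sufficient cells of day 30. Itgax had 15 UMIs in Thpok-sufficient cells of day 7, so its counts fell there too. Its Thpok-sufficient day ratio of 1.61 (interval 0 to 2.24), and with it its rank, comes from the floor of 3 counts.

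**Figure D4:**
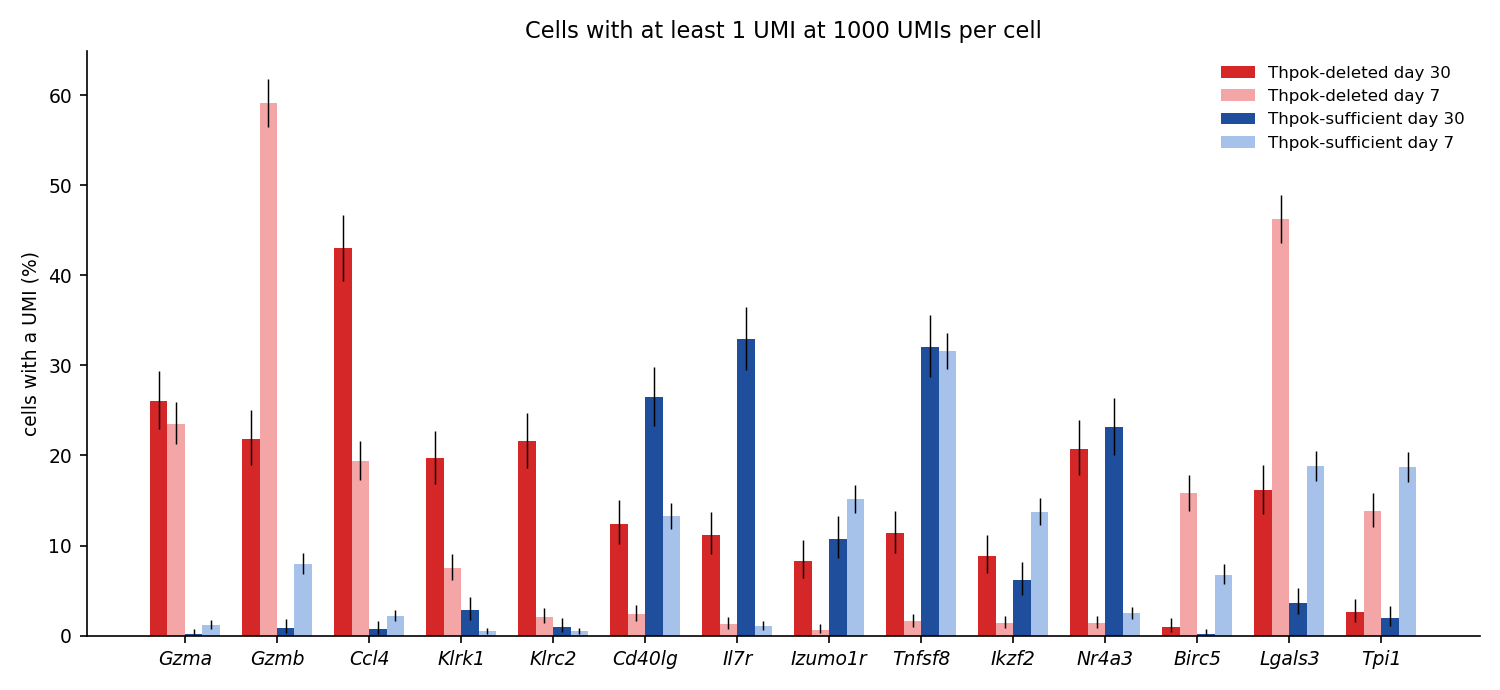
Share of cells with at least 1 UMI of a gene (vertical, in %) after thinning every cell to 1000 UMIs, in Thpok-deleted and Thpok-sufficient libraries of day 30 and day 7; error bars are exact 95% binomial intervals over cells and cover counting error only. Gzmb falls to 21.9% at day 30 against 59.2% at day 7 in Thpok-deleted cells, while Klrc2, Il7r and Izumo1r stand higher at day 30.

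Shares of cells need a background, since free RNA in droplets also gives UMIs. Thinning kept 732 of the 736 day 30 cells and 1330 of the 1333 day 7 cells. No cell type that should lack these genes was separated in the Thpok-deleted day 30 library. Within it, 1.64% of the thinned cells with an Izumo1r UMI had a Gzma UMI, and 0.524% of those with a Gzma UMI had an Izumo1r UMI. The RNA of droplets without cells in the Thpok-deleted day 30 library held Gzma at 963 CPM and Izumo1r at 193 CPM, against 1054 and 152 CPM in its cells. Izumo1r was detected in 8.33% of thinned Thpok-deleted cells at day 30 (interval 6.43 to 10.6%) and 0.677% at day 7 (0.310 to 1.28%). Tnfsf8 was detected in 11.3% at day 30 and 1.58% at day 7, and Ikzf2 in 8.88% and 1.35%.

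At day 30 Izumo1r and the granzymes Gzma and Gzmb were found in largely different cells. Of 732 thinned Thpok-deleted cells, 61 had an Izumo1r UMI and 671 had none, and the shares that follow are given in that order. Tnfsf8 was detected in 41.0% and 8.64% of them, Ikzf2 in 31.1% and 6.86%, and Tbc1d4 in 24.6% and 5.07%. C2cd4b (24.6% and 3.13%), Nrn1 (23.0% and 2.38%) and Cd200 (23.0% and 3.58%) followed the same order, as did Tcf7 (24.6% and 8.79%), Ccr7 (19.7% and 4.92%) and Cd4 (24.6% and 11.3%). The granzymes, Klrc2 and the Th1 list genes Ly6c2 and Ccl5 went the other way. Gzma was detected in 1.64% and 28.3%, Gzmb in 3.28% and 23.5%, Ly6c2 in 3.28% and 50.8%, and Ccl5 in 45.9% and 90.3%. Klrc2 was detected in 0 of 61 cells, which allows a share of up to 4.92% with a UMI (the floor of 3 counts). Among the cells without an Izumo1r UMI its share was 23.5%. Cells are not replicates, and these shares describe 1 library.

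**Figure D5:**
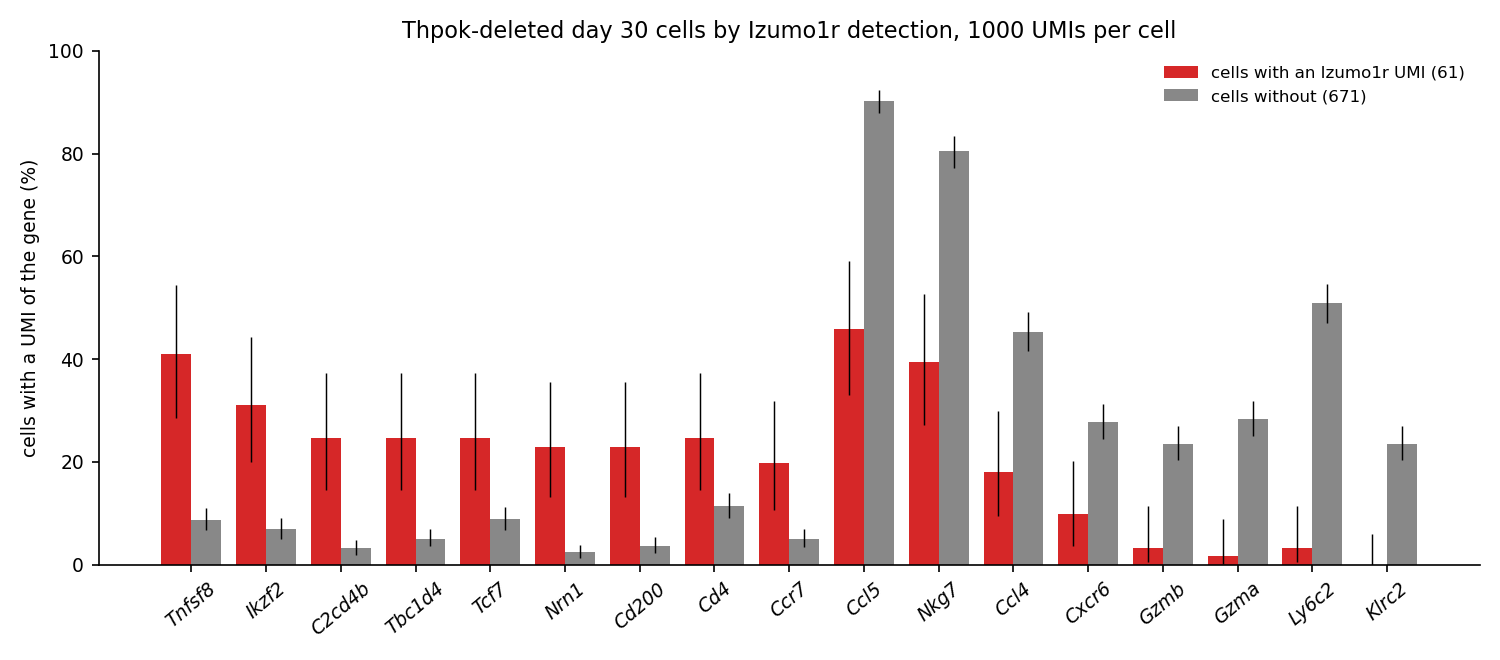
Share of Thpok-deleted day 30 cells with a UMI of each gene (vertical, in %, cells thinned to 1000 UMIs), among the 61 cells with an Izumo1r UMI and the 671 without; error bars are exact 95% binomial intervals over cells. Tnfsf8, Ikzf2, Tbc1d4 and Ccr7 are more often detected in cells with Izumo1r, and Gzma, Gzmb, Ly6c2 and Klrc2 in cells without.

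Split by Gzma, 191 thinned cells had a UMI and 541 had none. Gzmb was detected in 48.7% of the cells with and 12.4% of those without, Klrc2 in 35.6% and 16.6%, Klrk1 in 37.2% and 13.5%, and Ccl4 in 66.0% and 34.9%. Il7r was detected in 4.71% and 13.5%, Ccr7 in 1.05% and 7.95% and Tnfsf8 in 1.05% and 15.0%, less often in cells with Gzma. Klf2 (71.2% and 58.8%) was more often found in cells with Gzma. Cd40lg stood at 17.8% and 10.5% with overlapping intervals (12.65 to 23.98% and 8.08 to 13.43%). Cd4 did not follow the split, at 12.6% and 12.4%. Of the 82 cells with an Il7r UMI, 4 had an Izumo1r UMI (4.88%), against 57 of 650 without (8.77%), and the intervals of these shares overlap. At day 7, 313 thinned Thpok-deleted cells had a Gzma UMI and 1017 had none: Gzmb was detected in 71.2% and 55.5%, Klrc2 in 1.92% and 2.16%, and Tcf7 in 1.60% and 7.67%. The split by Izumo1r could not be drawn at day 7, where 9 of 1330 thinned cells had an Izumo1r UMI.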

How the data were processed

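Droplet 3' RNA sequencing (10x chemistry version 2, per the labels' protocols) gave UMI counts per gene and barcode. The deposited counts carry no normalization; per the submitters' processing notes, the tools were Cell Ranger (no version stated) and bcl2fastq 2.17, and the genome build was mm10. Which library had which read length is not stated. Each file holds 27998 genes and all barcodes, empty droplets included. Doublets were not removed.

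Barcodes with 500 or more genes and a mitochondrial share of 10% or less were kept, and their counts summed per library and divided by the library's total. Ratios have exact conditional binomial 95% intervals and shares exact Clopper-Pearson intervals, with a floor of 3 counts for a count of 0; all cover counting error only. edgeR 4.0.16 (quasi-likelihood test, TMM, filterByExpr, Benjamini-Hochberg 0.05) and DESeq2 1.42.0 ran in R 4.3.3 on the 5 GP66+ libraries, with checks on simulated data, and other steps in Python 3.11.15 (numpy 2.4.6, scipy 1.17.1, pandas 2.3.3, matplotlib 3.10.9). Genes named are Zbtb7b, members of 20 gene lists with the highest and lowest ratio, the highest level or a role the text needs, per direction the 14 genes whose interval bound lies farthest from 1 (at least 50 CPM), and per direction the 8 largest differences between genotypes. The cells compared, the lists and the rule were chosen with earlier results of these data known. Gene positions are those of GENCODE on GRCm38 and promoters those of RefSeq. Some genes are not reported here.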

Additional observations from a re-analysis of the deposited data

Results flagged for a closer look

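In 3 genes the day ratio went up 2-fold in Thpok-deleted cells and down 2-fold in Thpok-sufficient cells, against either intact library of day 7. edgeR's test of that difference did not pass for any of them (adjusted p = 0.69). Ikzf2 had a ratio of 10.1 in Thpok-deleted cells (193 CPM at day 30 and 19.1 CPM at day 7) and 0.495 in Thpok-sufficient cells. Cd83 had a ratio of 38.2 in Thpok-deleted cells (77.5 and 2.03 CPM) and 0.409 in Thpok-sufficient cells (25.1 and 61.5 CPM), with 81.0 CPM in wild type cells of day 7. Cxcl10, a chemokine induced by interferon, had a ratio of 2.38 in Thpok-deleted cells (26.6 CPM at day 30 and 11.2 CPM at day 7) and 0.312 in Thpok-sufficient cells (17.4 and 55.8 CPM), with 57.7 CPM in wild type cells of day 7. Each rests on 1 library per genotype and day.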

How the results depend on the processing

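Against 525 genes higher and 600 lower at day 30 in Thpok-deleted cells, the size rule gave 1147 and 949 with a minimum of 5 CPM, 294 and 364 with 50 CPM, and 282 and 166 at 3-fold. With the counting interval wholly past 2-fold it gave 369 and 254. All other alternatives lay within 1.5 times of both counts: 480 and 706 with TMM factors, 585 and 760 without the 5% of cells with most UMIs, 528 and 589 without the erythroid cells and, both chosen after the data were seen, 566 and 468 without cells with 10 or more division UMIs (433 and 284 genes shared) and 537 and 607 in cells with 2000 to 5000 UMIs (421 and 348 shared). Leaving out ribosomal and mitochondrial totals shifted the median log2 ratio to -0.11. edgeR called 455 higher and 473 lower without a filter on low counts and DESeq2 108 and 22, against 0 and 0, and for the difference between genotypes 4 and 6 genes were higher, against 0. With the wild type day 7 library as the intact baseline, 754 and 272 genes differed 2-fold between the day changes. Of 149 listed or named genes past 2-fold, 114 passed in every alternative run on them. Ratios of Ung (1.29) and Slbp (1.08) reversed in cells with 2000 to 5000 UMIs; the cause was not tested. No paired analysis was possible because each group is 1 library. Depth limits genes under 20 CPM, which at day 30 stand for few UMIs.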

Other observations

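Ribosomal protein genes and their near-identical copies behaved unlike each other. Of 81 ribosomal protein genes at 20 CPM, 3 rose and 1 fell in Thpok-deleted cells (median log2 ratio 0.01), whereas 11 of 15 annotated copies rose and 0 fell (median 1.61, and 1.69 in Thpok-sufficient cells). Rps27rt, a copy of Rps27, had 7110.3 CPM at day 30 and 934 CPM at day 7 (ratio 7.61), and Rps27 itself 11904 and 4589 CPM (ratio 2.59). Reads shared between such copies can be assigned to either, so these values are uncertain. The intact libraries of day 7 also differ here: Rps27 had 6785 CPM in Thpok-sufficient and 253 CPM in wild type cells, and Rps18-ps3 1065 and 148 CPM. The labels give 2 read lengths for the series without saying which library had which, and its part in these values was not tested.

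Among droplets without cells, haemoglobin genes and Alas2 made up 2151.5 CPM in the Thpok-deleted library of day 30 and 141 CPM in that of day 7. Cd74, the invariant chain of antigen presentation, had 48.6 CPM at day 30 and 5.42 CPM at day 7 in Thpok-deleted cells (ratio 8.97), while the B cell genes Cd79a and Ms4a1 had 0 UMIs at day 30.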
